A study of Polistes fuscatus with 17 samples.

Results

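Workers of the paper wasp Polistes fuscatus taken in August were compared with workers taken in July, by the RNA of single adult brains. The comparison held 8 of the series' 17 libraries, chosen by the collection date in the labels. The August workers were 3 wasps, FW47 from a nest of its own species (conspecific) and FW32 and FW44 from nests of P. metricus (allospecific). The July workers were 5 wasps, FW10, FW25 and FW28 from conspecific nests and FW11 and FW24 from allospecific nests. All 8 were adult females kept for a week or more on a nest other than the one of their birth, and all were afterwards trained to P. fuscatus faces over 40 trials in a T-shaped maze with negative reinforcement. The other 9 libraries came from foundresses, of which 4 were trained to patterns (F34 and F52 in June, F17 and F3 in May) and 5 to faces (all in May). The labels give the same locality for every wasp, each library is 1 animal, and the labels do not give age in days, colony of birth or sequencing batch. Month of collection therefore cannot be told apart from the age of the workers, the stage of the colony, the dates of training or the order of laboratory work.

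Temperate paper wasps have an annual colony cycle. Mated foundresses start nests in spring, their daughters emerge in summer as workers, and late in summer colonies turn to rearing males and the females that will found nests in the next year. Brain gene expression in social insects is known to differ with caste, age, task and reproductive state, and P. fuscatus is known for telling individuals apart by their faces. The files name contigs of a transcriptome assembly by identifier only. None of the 157691 identifiers (0 matches) occurred among the 13634 entries of the RefSeq gene table of assembly CU_Pfus_HIC, so no contig could be tied to a gene, to a function or to a marker of brain cells, and the labelled tissue could not be checked against markers.

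The libraries of the 2 months differed by less than the spread between wasps in depth, contigs detected and overall spread. Levels below are in CPM, the counts of a contig scaled to a common library total with TMM factors (trimmed mean of M values). Total counts were 18021004 (FW47), 16475310 (FW32) and 19732308 (FW44) in August workers and 16634282 to 20180047 in July workers. The totals averaged 18.1 ± 1.63 M counts (SD, n = 3) in August and 19.1 ± 1.48 M counts (n = 5) in July, a difference within the spread between wasps (exact permutation test over 56 arrangements, two-sided, p = 0.375, adjusted p = 0.75 over 4 tests, where the smallest possible p was 0.0179). At an equal depth of 16475310 counts, 97822 ± 2139 contigs were detected in August workers and 98079 ± 2014 in July workers (exact permutation test, p = 0.786, adjusted p = 0.786). The 10 most abundant contigs of each library held 5.86 ± 0.952% of counts in August and 6.59 ± 0.706% in July (exact permutation test, p = 0.286, adjusted p = 0.75). The median absolute deviation of each library's log2 CPM from the median of the other workers was 0.277 ± 0.0165 in August and 0.288 ± 0.0535 in July (exact permutation test, p = 0.768, adjusted p = 0.786).

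July worker FW28 was the least like the other workers in correlation and deviation. It had the lowest median correlation with the others across contigs, 0.963, against 0.967 to 0.973 in the other 7, and the widest deviation, 0.353, against 0.231 to 0.328. Pairs of workers from different months were about as alike as pairs from the same month. Across contigs, which are not replicates, the correlation of log2 CPM averaged 0.972 over the 3 pairs of August workers, 0.968 over the 10 pairs of July workers and 0.969 over the 15 pairs that joined the months, with the last running from 0.956 to 0.977. Without FW28 the averages were 0.972, 0.972 and 0.97. The closest pair that joined the months, at 0.977, was as close as the closest pair of August workers, at 0.976, and the closest pair of July workers, at 0.975. The first 2 principal components held 24.5% and 18.4% of the variance. August workers stood at 47.6 (FW47), 27.4 (FW44) and -41.0 (FW32) on the first component, inside the July range of -51.2 to 70.4. On the second they stood at -31.3, -49.2 and -30.3, below the July workers, of which FW24 was nearest at -20.4 and the others lay between 10.2 and 55.2.

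No contig differed between August and July workers past a false discovery rate (FDR) of 0.05. Of 59502 contigs tested, 0 (0%) passed edgeR's quasi-likelihood test with nest group as a covariate and p adjusted by Benjamini and Hochberg's method. The lowest adjusted p in edgeR was 0.0658. At an adjusted p under 0.1 there were 3 contigs, 1 higher and 2 lower in August. At an unadjusted p under 0.05 there were 3027, which is 5.09% of those tested. A share of about 0.05 arises at this threshold where no contig differs. Of these, 972 (1.63%) were higher and 2055 (3.45%) lower in August. DESeq2's Wald test called 51 contigs, 8 higher and 43 lower, and limma-voom called 1, which was higher. All 51 of the DESeq2 calls were at an unadjusted p under 0.05 in edgeR. Both tools read the same libraries, so this overlap gives the calls no separate support. For comparison, the nest covariate of the same model passed the FDR in 23 contigs (0.0387%) and had an unadjusted p under 0.05 in 3753 (6.31%).

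The direction of the nominal differences depended on how libraries were scaled. With library totals in place of TMM factors, 1855 contigs were higher and 1418 lower in August at an unadjusted p under 0.05, which turns the majority round. With DESeq2 size factors the majority stayed on the lower side, as with TMM, with 1100 higher and 1890 lower. The median log2 fold change of all contigs was -0.01 with TMM and 0.05 with totals, and the biological coefficient of variation among the workers was 0.17. Differences over 2-fold leaned to the lower side under both scalings, with 104 contigs higher and 786 lower in August by TMM and 133 higher and 677 lower by totals. The months did not overlap in CPM in 1577 contigs (2.65% of those tested). The levels of the 3 August workers lay wholly above those of the 5 July workers in 702 contigs (1.18%) and wholly below in 875 (1.47%). Of the 56 arrangements of 3 August workers among 8, 1 lies wholly above and 1 wholly below, a share of 0.0179 each. Neither observed share was larger than that.

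**Figure D1:**
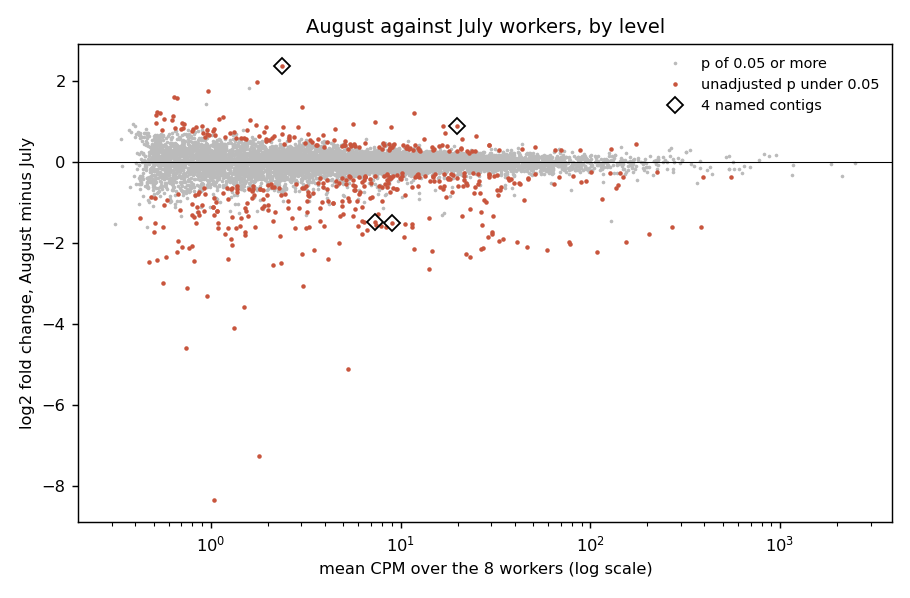
Log2 fold change of August over July workers (vertical) against the mean CPM over the 8 workers (horizontal, log scale), for 8000 contigs drawn at random together with all those at an unadjusted p under 0.001. Red points have an unadjusted p under 0.05 and diamonds mark the 4 contigs named in the text; differences over 2-fold lie mostly below 0 (786 lower and 104 higher over all contigs tested), and no contig passed the FDR in edgeR with nest group as a covariate.

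By abundance the nominal differences were spread over all levels. Contigs with a mean under 2 CPM were higher in August at an unadjusted p under 0.05 in 1.92% and lower in 3.37%. The higher share was 1.54% from 2 to 8 CPM, 1.6% from 8 to 32 CPM, 1.33% in the 5343 contigs of the next 4-fold step and 0.579% in the 864 contigs above it. The lower share was 3.52%, 3.23%, 3.82% and 5.9% over the same steps. Log2 fold changes had a median standard error (SE) of 0.20 from 2 to 8 CPM and 0.14 from 8 to 32 CPM. Among the 100 most abundant contigs, which held 14.5% of all worker counts at mean levels of 528 to 16060 CPM, 0 were higher and 3 lower in August at an unadjusted p under 0.05. Their log2 fold changes ran from -1.12 to 0.26 with a median of -0.09, and the lowest adjusted p among them was 0.924 in edgeR.

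The contig with the smallest p was higher in August within each nest group, though workers of both nest groups had entered its choice. PfusTSAr1.0-113314 had 9.74 CPM in the August conspecific worker FW47, against 1.10, 1.92 and 1.46 CPM in the July conspecific workers FW10, FW25 and FW28. In allospecific workers it had 1.53 and 1.49 CPM in August (FW32 and FW44), against 0.474 and 0.390 CPM in July (FW11 and FW24). The months did not overlap within a nest group, but over all 8 workers FW25 lay above the 2 allospecific August workers. How many of all tested contigs did not overlap within both nest groups was not counted. The contig averaged 4.25 ± 4.76 CPM (SD, n = 3) in August and 1.07 ± 0.652 CPM (n = 5) in July, a log2 fold change of 2.37 (SE 0.26) that did not pass (adjusted p = 0.0658 in edgeR). The counts behind these levels were low, at 26, 31 and 191 in August and 8 to 34 in July. Without FW47 the log2 fold change was 1.78 and the adjusted p was 1.00 in edgeR. That fit compared the months in allospecific workers alone, because no conspecific August worker was left.

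PfusTSAr1.0-111994 was the other contig named on the higher side, by the rule of the smallest p. It had 35.7, 21.7 and 20.7 CPM in August workers FW47, FW32 and FW44, against 12.8 to 16.2 CPM in July workers. The averages were 26.0 ± 8.34 CPM (n = 3) in August and 14.8 ± 1.38 CPM (n = 5) in July. Every August worker lay above every July worker, and FW47 was the highest. The log2 fold change was 0.87 (SE 0.14), which did not pass (adjusted p = 0.289 in edgeR). Without FW47, which leaves the months to be compared in allospecific workers alone, it was 0.60 (adjusted p = 1.00).

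On the lower side the 2 contigs with the smallest p had neighbouring identifiers, and their levels moved together. PfusTSAr1.0-077819 had 3.21, 2.58 and 4.08 CPM in August workers FW47, FW32 and FW44. In July workers it had 9.64 (FW10), 10.3 (FW25), 8.39 (FW28), 9.85 (FW11) and 8.24 CPM (FW24). The months did not overlap, and the 5 July values lay within a narrow range in both nest groups. The averages were 3.29 ± 0.750 CPM (n = 3) in August and 9.28 ± 0.917 CPM (n = 5) in July, a log2 fold change of -1.49 (SE 0.18) that did not pass (adjusted p = 0.0959 in edgeR).

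PfusTSAr1.0-077817 had 3.67, 3.58 and 4.56 CPM in August workers FW47, FW32 and FW44, against 11.4, 14.7, 9.90, 11.8 and 9.31 CPM in July workers FW10, FW25, FW28, FW11 and FW24. Again the months did not overlap, and each August worker lay under 5 CPM. The log2 fold change was -1.51 (SE 0.19, adjusted p = 0.0959 in edgeR), and the difference was much the same in each nest group, at -1.36 log2 in allospecific and -1.67 log2 in conspecific workers. For PfusTSAr1.0-077819 these differences were -1.45 and -1.53 log2. Workers of both nest groups entered the choice of the 2 contigs, so these differences describe that choice. Both contigs passed the FDR without the nest covariate, at an adjusted p of 0.0471 in edgeR, and they were the 2 contigs called there. With the covariate and 1 worker left out, both passed only without FW24 (adjusted p 0.0171 for PfusTSAr1.0-077819 and 0.0155 for PfusTSAr1.0-077817 in edgeR). Without FW47 no conspecific August worker is left, and the fit compares the months in allospecific workers alone. There the log2 fold changes of the 2 contigs were -1.43 and -1.37, with adjusted p of 0.879 and 0.885 in edgeR. Without FW11 both had an adjusted p of 0.492 in edgeR.

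**Figure D2:**
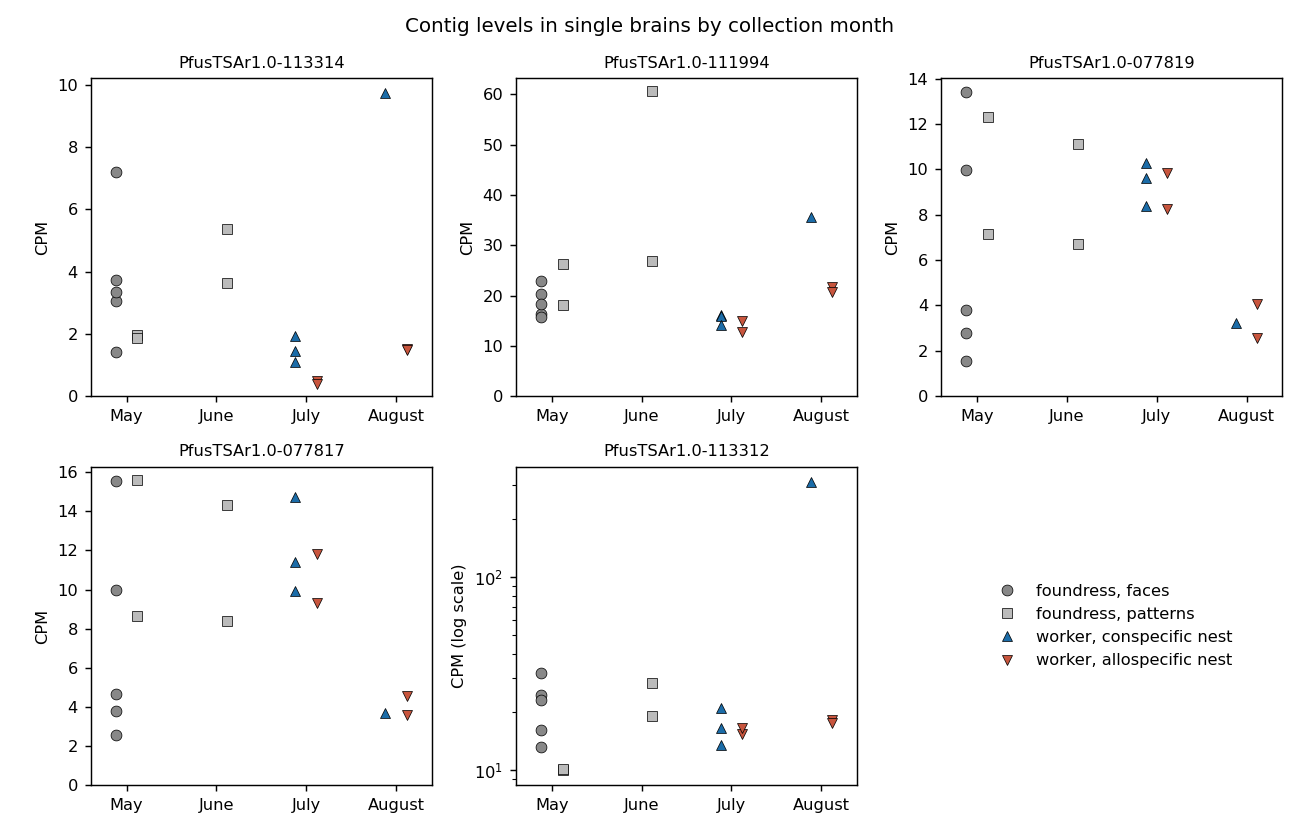
CPM of 5 contigs in each of the 17 brains by month of collection, with 1 symbol per wasp (grey circles and squares, foundresses trained to faces and to patterns; triangles, workers by nest group). The last panel has a log scale, all others start at 0; PfusTSAr1.0-077819 and PfusTSAr1.0-077817 are lower in all 3 August workers than in all 5 July workers but span both ranges in May foundresses, and PfusTSAr1.0-113312 stands at 314 CPM in FW47 alone.

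The same contigs varied widely among foundresses, which entered no worker test. PfusTSAr1.0-077819 had 11.1 and 6.72 CPM in June foundresses F52 and F34 and 12.3 and 7.14 CPM in May foundresses F17 and F3, all trained to patterns. In the May foundresses trained to faces it ran from 1.56 CPM in F55 to 13.4 CPM in F35, with a median of 3.78 CPM. A spread within 1 group and 1 month thus covered both the August and the July levels of the workers. PfusTSAr1.0-077817 ran from 2.53 to 15.6 CPM in the same 5 foundresses. PfusTSAr1.0-111994 had 60.8 and 26.8 CPM in June foundresses F34 and F52, against 18.1 and 26.3 CPM in May foundresses F17 and F3, and 15.8 to 23.0 CPM in those trained to faces. PfusTSAr1.0-113314 ran from 1.43 to 7.22 CPM in foundresses trained to faces, above the allospecific July workers in each of them.

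Around PfusTSAr1.0-077819, 4 tested contigs within 5 consecutive identifiers had log2 fold changes of -1.59, -1.62, -1.51 and -1.49 (SE 0.22, 0.22, 0.19 and 0.18). Their adjusted p in edgeR were 0.166, 0.166, 0.0959 and 0.0959, and in all 4 the months did not overlap. The other tested contigs within 15 identifiers had log2 fold changes of -0.26 to 0.48. How reads that match several contigs were counted is not given, so whether these 4 count the same reads was not tested. Beside PfusTSAr1.0-113314, a contig 2 identifiers away had a log2 fold change of 2.30 (SE 0.63). Over all tested contigs, log2 fold changes of adjacent identifiers had a correlation of 0.304 over 44108 pairs, and 24 of the 100 contigs with the smallest p had an adjacent identifier among those 100. Of these 100 contigs, 14 were higher and 86 lower in August.

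**Figure D3:**
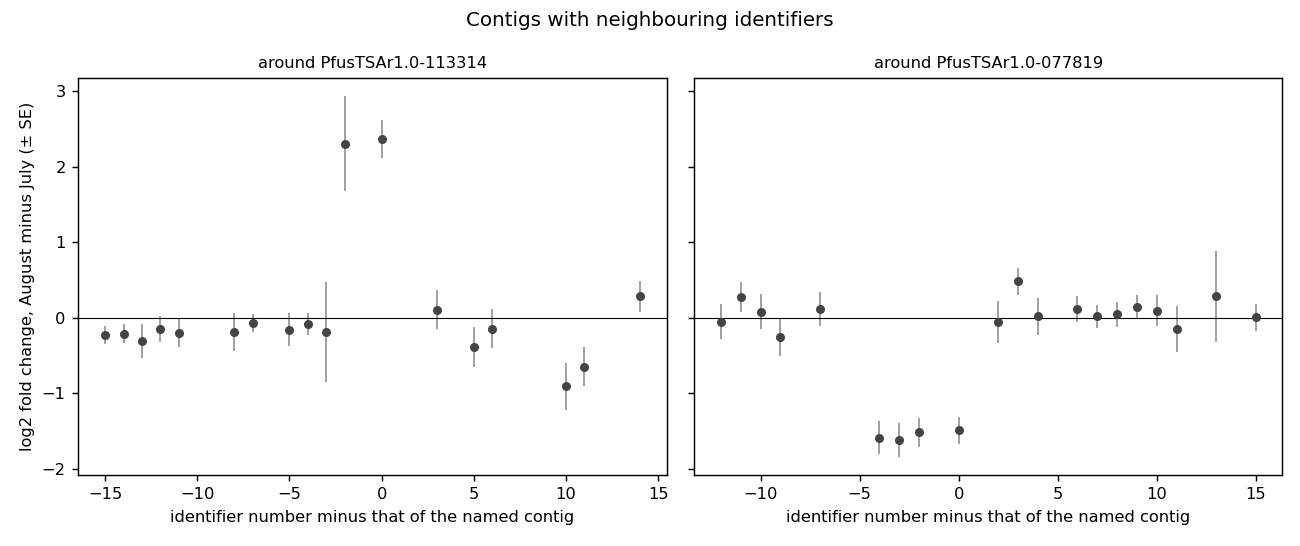
Log2 fold change of August over July workers (vertical, bars 1 SE) for tested contigs within 15 identifiers of PfusTSAr1.0-113314 and of PfusTSAr1.0-077819 (horizontal, identifier number minus that of the named contig). In the second panel 4 contigs stand between -1.62 and -1.49 and the others between -0.26 and 0.48, while in the first only the contig 2 identifiers below stands as high as the named one, with a wider SE.

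The count of calls in edgeR moved with single wasps as well as with the tool. Leaving out July worker FW24 gave 98 contigs past the FDR in edgeR, 5 higher and 93 lower in August, and leaving out August worker FW32 gave 6, 1 higher and 5 lower. Leaving out any of the other 6 workers gave 0 in edgeR. At an unadjusted p under 0.05 the count was 1873 without FW47, 1970 without FW44 and 1975 without FW11, and between 2733 and 4525 without 1 of the other 5 workers. In each of these fits, all scaled by TMM, more contigs were lower than higher in August. With library totals and no worker left out, the majority lay on the higher side, with 1855 higher and 1418 lower. The fit without FW47 compared the months in allospecific workers alone.

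**Figure D4:**
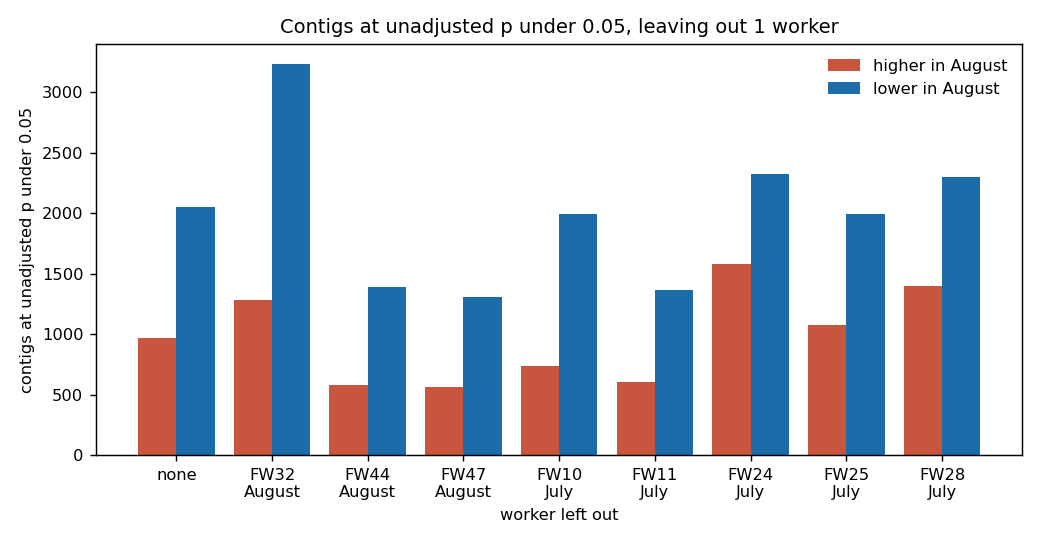
Contigs at an unadjusted p under 0.05 (vertical) that were higher (red) or lower (blue) in August workers, with all 8 workers (none) and with each worker left out. The lower side exceeds the higher side in every fit, and the counts are smallest without FW47, with 562 higher and 1311 lower. The fit without FW47 compares the months in allospecific workers alone. All fits shown use TMM scaling, and library totals turn the majority round with no worker left out.

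The 93 contigs called lower in August without FW24 had a median level of 12.5 CPM and a median log2 fold change of -2.23. None of them was called by edgeR with FW24 in the fit, so the choice of these contigs favours those in which FW24 is low, and its level here is a description of that choice. Their summed level was 1512, 758 and 963 CPM in August workers FW47, FW32 and FW44. In July workers it was 4013 (FW10), 3775 (FW25), 6882 (FW28), 6188 (FW11) and 1021 CPM (FW24). In the foundresses trained to patterns the sum was 1614 and 2838 CPM in June and 4209 and 1726 CPM in May. In the May foundresses trained to faces it ran from 406 to 6297 CPM, with 724, 923 and 1826 CPM between, so that foundresses of 1 month also held both the low and the high levels.

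Contigs over 2-fold lower in August at an unadjusted p under 0.05 were 634 in all. Of these, 325 had a mean under 2 CPM, and the median was 1.88 CPM, so sums over the set lean on its more abundant contigs. The sum of the 634 was 4248, 2715 and 3405 CPM in August workers FW47, FW32 and FW44. In the July workers it was 9487 (FW10), 11513 (FW25), 16475 (FW28), 13567 (FW11) and 8121 CPM (FW24). All 8 workers entered the choice, and FW24 was the lowest July worker but lay above every August worker. In foundresses, which had no part in the choice, it ran from 3193 to 20753 CPM, both in May wasps trained to faces. On the higher side there were 87 such contigs, of which 67 had a mean under 2 CPM. Their sum was 1016 CPM in FW47, 455 in FW32 and 358 in FW44, against 157 to 354 CPM in July workers and 153 to 460 CPM in foundresses. PfusTSAr1.0-113312 is one of these contigs and alone gave 314 CPM of the sum in FW47, against 18.2 CPM in FW32 and 17.5 CPM in FW44. Of all contigs higher in August at an unadjusted p under 0.05, FW47 was the highest August worker in 70.8% and FW11 the lowest July worker in 54.1%. Of those lower in August, FW47 was the lowest August worker in 44.9% and FW11 the highest July worker in 33.8%. Such shares were not counted over all tested contigs, so these shares cannot be called large or small. All 8 workers entered this choice too, and FW47 is the only August worker from a conspecific nest.

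Presence or absence by month was rare under a strict rule, which asked for counts in every worker of the other month. Of 157691 contigs, 1 had 0 counts in every August worker and at least 3 counts in every July worker. Its highest July count was 79. The opposite pattern, 0 counts in every July worker and at least 3 in every August worker, was seen in 0 contigs.

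The month difference was also read in each nest group alone, in wasps that the other group did not share. Across contigs, which are not independent, the log2 differences of August minus July in allospecific workers (2 against 2) and in conspecific workers (1 against 3) had a Pearson correlation of 0.239 and a Spearman correlation of 0.176. They had the same sign in 56.4% of the 59502 contigs. Of the 2243 contigs at an unadjusted p under 0.05 in allospecific workers, 1473 (65.7%) had the same sign in conspecific workers. Those higher in allospecific August workers, 615 contigs, had a median log2 difference of 0.69 there and of 0.14 in conspecific workers. Those lower, 1628 contigs, had medians of -0.84 and -0.25. Contigs share libraries within each nest group, so these shares describe the 8 wasps and carry no test.

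**Figure D5:**
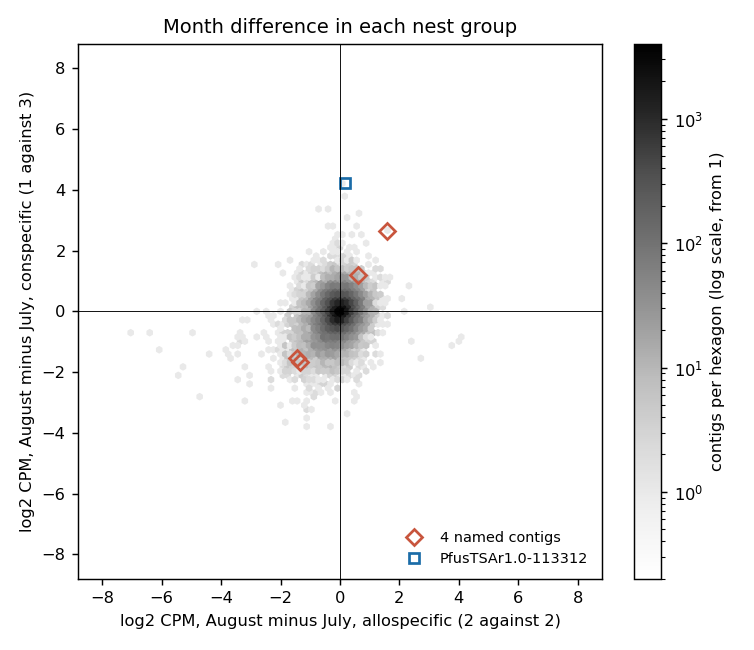
August minus July difference in log2 CPM in conspecific workers (vertical, 1 August wasp against 3 of July) against that in allospecific workers (horizontal, 2 against 2), as the number of contigs per hexagon on a log scale. The cloud leans weakly upward (Pearson correlation 0.239 over 59502 contigs), and PfusTSAr1.0-113312 stands at 4.22 log2 in conspecific and 0.16 log2 in allospecific workers. The 4 named contigs have the same sign in both nest groups, but workers of both nest groups entered their choice, which favours such contigs.

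Whether the month difference differed between nest groups was tested by the interaction of nest and month, which 1 of 59502 contigs (0.00168%) passed in edgeR. PfusTSAr1.0-113312 had 314 CPM in August conspecific worker FW47, against 21.0, 13.5 and 16.4 CPM in July conspecific workers FW10, FW25 and FW28. In allospecific workers it had 18.2 and 17.5 CPM in August, against 15.3 and 16.5 CPM in July. FW47 alone was high, with 6161 counts, and the other 16 libraries of the series ran from 9.91 to 31.8 CPM. The interaction had a log2 fold change of 4.04 (SE 0.29, adjusted p = 0.00203 in edgeR), and since FW47 is the only August worker from a conspecific nest, its own level and an effect of month in that nest group cannot be told apart. At an unadjusted p under 0.05 the interaction had 1489 contigs, 2.5% of those tested. Its identifier lies 2 below that of PfusTSAr1.0-113314, in which FW47 was also the highest worker.

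An earlier pair of months was available in foundresses trained to patterns, 2 of June against 2 of May. In these, 0 of 57008 contigs (0%) passed the FDR in edgeR (lowest adjusted p = 0.994), 950 (1.67%) had an unadjusted p under 0.05, and DESeq2 called 11. Without May foundress F3 edgeR called 7377, with F17 then the only May wasp. Of the 896 contigs higher in August workers at an unadjusted p under 0.05 and tested in both, 68.3% were higher in June than in May foundresses, and of the 1921 lower in August, 64.9% were lower in June. Over all 55615 contigs tested in both, 49.0% were higher in June and 51.0% lower, and across contigs the 2 sets of log2 fold changes correlated with a Pearson r of 0.148. These values moved with single wasps. Without May foundress F17 the shares were 54.5% and 53.3% and the correlation was -0.00284, and without July worker FW11 they were 49.9% and 54.9% with a correlation of -0.0171. Without July worker FW24 they were 81.5% and 72.0% with a correlation of 0.244. The correlation was 0.0931 without June foundress F52 and 0.0888 without August worker FW44, and 0.124 to 0.216 without any 1 of the other 7 wasps. For the named contigs, the log2 fold changes of June over May were 1.18 (SE 0.55) for PfusTSAr1.0-113314, 0.95 (SE 0.50) for PfusTSAr1.0-111994, -0.17 (SE 0.49) for PfusTSAr1.0-077819 and -0.14 (SE 0.49) for PfusTSAr1.0-077817, and the adjusted p was 0.994 for all 4 in edgeR.

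The levels of each named contig over the 8 workers were set against those of the other tested contigs, of 59502 in all. A Pearson correlation over 0.95 in log2 CPM was reached by 14 contigs with PfusTSAr1.0-113314, by 5 with PfusTSAr1.0-111994, by 10 with PfusTSAr1.0-077819 and by 7 with PfusTSAr1.0-077817. For each of the last 2, 3 of these lay within 10 identifiers. The same count was not made for contigs that were not named, so these counts cannot be called few or many. Each library holds the RNA of a whole brain, so a lower level cannot be told apart from fewer cells of a type or less RNA per cell.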

How the data were processed

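The authors deposited read counts per contig as whole numbers whose sums differ between libraries, which were used as raw counts. Trimmomatic 0.32, Bowtie2 and eXpress are named, without roles, in the submitters' processing notes. Alignment settings and the handling of reads matching several contigs were not given in the sources used here; such reads can move neighbouring contigs together.

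In R 4.3.3, edgeR 4.0.16 kept contigs by its expression filter by month, 59502 of 157691, with 99.4% of worker counts. Libraries were scaled by TMM. The 8 workers were fitted with nest group and month (5 residual degrees of freedom) and tested by the two-sided quasi-likelihood F-test with Benjamini-Hochberg adjustment. SE is the fold change's size over the square root of F, and log2 CPM used a prior count of 2. CPM in the text are on the TMM scale of all 17 libraries. Per-library values had exact permutation tests. In each direction the 2 contigs with the smallest p were named. PfusTSAr1.0-113312, the only interaction call, was named too. The procedure was tested on simulated data. No pair of same-month libraries was as close as sampling noise (lowest chi-square per degree of freedom 8.12). DESeq2 1.42.0 and limma 3.58.1 were alternatives. The comparison and its rules were chosen with earlier results of these data known. The sets read across foundresses, and FW28 and FW24 left out together, were chosen after the data were seen.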

Additional observations from a re-analysis of the deposited data

Results flagged for a closer look

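July worker FW28 held 7.83% of its counts in its 10 most abundant contigs, against 6.14 to 6.51% in the other July workers, and lay apart from them by Dixon's criterion. It was the only such case among 20 sets examined, and chance gives about 1 in 20. The median correlation and the deviation of the July workers were among these sets, and FW28 was not flagged in either. PfusTSAr1.0-113312 had a month difference that differed between nest groups, with an interaction log2 fold change of 4.04 (adjusted p = 0.00203 in edgeR). It rests on FW47, the only August worker from a conspecific nest, so this wasp and the month cannot be told apart there.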

How the results depend on the processing

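No paired analysis was possible because no label pairs an August worker with a July worker. Among the alternatives, the fit of all 17 libraries gave each nest group in each month its own mean. It weighted the month differences of the nest groups equally, so FW47 alone stood for the conspecific August workers. The month contrast, with 0 calls, had 1 with library totals alone, limma-voom, all 17 libraries in 1 fit, 1 contig per run of identifiers or conspecific workers only, 2 without the nest covariate, 3 at an FDR of 0.1, with allospecific workers only, robust dispersions or library quality weights, 51 with DESeq2, 113 without FW28 and FW24, and 0 to 98 leaving out 1 worker. With no filter it had 1193, and there edgeR set the prior degrees of freedom to infinity, against 6.60 with the filter. Its count at an unadjusted p under 0.05 was 6572 of 143476 with no filter (4.58%) and 786 of 15394 with 1 contig per run (5.11%), shares near the 5.09% of all 59502, 1371 of 68551 with all 17 libraries, 5392 with quality weights (9.06%), 5733 of 57768 without FW28 and FW24 (9.92%), and 1873 to 4525 leaving out 1 worker. The interaction had 4 calls with DESeq2, 243 with no filter and 1 to 6 leaving out 1 worker (6 without FW11; FW47 cannot be left out), and at an unadjusted p under 0.05 it had 778, 3938 and, with all 17 libraries, 760, and 1288 to 1971 leaving out 1 worker. June minus May in foundresses had 11 calls with DESeq2, 77 with no filter and 0 to 7377 leaving out 1 wasp (7377 without F3, where F17 alone stands for May, assumed to vary like June wasps). At an unadjusted p under 0.05 it had 513 with totals, 3716 with no filter, 9704 with all 17 libraries and 252 to 19207 leaving out 1 wasp. No direction reversed in the named contigs. PfusTSAr1.0-113314 passed the FDR in 10 of 24 alternatives (adjusted p from 4.19e-16 to 1.00), PfusTSAr1.0-111994 in 4 of 23, PfusTSAr1.0-077819 and PfusTSAr1.0-077817 in 7 of 24 and 7 of 23, and PfusTSAr1.0-113312 in 16 of 16. The causes of these differences were not tested.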
